A study of Mus musculus with 8 samples.

Results

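In ChIP-seq (chromatin immunoprecipitation with sequencing) of CTCF from cultured cortical neurons of the mouse, 704 regions were listed for control cultures, had no overlapping region after NMDA, and lay at the end of a protein-coding gene. They were chosen from the control list, which held 33815 regions on chromosomes 1 to 19, X and Y. A region was kept if not 1 base of it overlapped a region of the NMDA list and if its summit was at most 1 kb from an end of a protein-coding gene's span in the mouse assembly GRCm38.p6. In all, 3117 control regions (9.22%) had no overlap in the NMDA list and are called control-only. Of the 6096 control regions at gene ends, 704 (11.5%) were control-only. The choice rests on presence in one list and absence from the other, so it says nothing by itself about the size of any change in binding.

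The wild-type neurons were taken from Swiss-Webster mouse embryos (embryonic day 16) and kept for 13 days in vitro. Control cultures received no treatment, and NMDA cultures received 50 µM NMDA, which activates the NMDA type of glutamate receptor, for 10 minutes and then recovered without drug for 50 minutes. Etoposide, a topoisomerase inhibitor, is named in the growth protocol of every sample, but no label assigns it to a group. Each condition had 2 ChIP and 2 input samples, which the labels call biological replicates, but only 1 list per condition, made from both replicates, was analysed here. Differences between the conditions therefore have no replicate check and no p-value. Read depth is unknown. The lists hold no expression values, so the cell type on the label could not be checked against marker genes.

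With its array of zinc fingers CTCF binds a long DNA motif and, by stopping cohesin, anchors chromatin loops and the borders between domains. It also binds many promoters, often in CpG-rich DNA near the transcription start site. In neurons it is known for its role in promoter choice in the clustered protocadherin genes.

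Promoter sequence was examined only for the 275 of the 704 regions that held a whole promoter window. RefSeq promoter windows of GRCm38.p6, 300 bases from 250 before to 50 after a start site, were searched for the CTCF core motif CCNNNAGNNGGC on both strands, the reverse form being GCCNNCTNNNGG. The 4 windows printed first are those under the control-only regions with the highest signal among those whose motif centre lay within 100 bp of the summit, passing over gene models without an established name. They are read 5′ to 3′ on the strand of the gene, and the capitals mark the motif.

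Mfsd6l: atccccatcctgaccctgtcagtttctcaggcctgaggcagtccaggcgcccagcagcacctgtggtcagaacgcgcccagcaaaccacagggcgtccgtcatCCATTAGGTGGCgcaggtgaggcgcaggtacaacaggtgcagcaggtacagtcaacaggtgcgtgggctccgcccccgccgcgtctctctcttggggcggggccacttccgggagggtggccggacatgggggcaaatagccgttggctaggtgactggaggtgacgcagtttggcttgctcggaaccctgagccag
Ikbkg: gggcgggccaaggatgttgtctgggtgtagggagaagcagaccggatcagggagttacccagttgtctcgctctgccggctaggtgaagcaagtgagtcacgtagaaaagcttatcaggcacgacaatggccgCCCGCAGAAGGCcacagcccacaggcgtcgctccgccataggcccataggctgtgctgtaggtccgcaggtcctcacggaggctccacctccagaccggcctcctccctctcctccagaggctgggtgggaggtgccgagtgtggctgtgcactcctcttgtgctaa
Pms1: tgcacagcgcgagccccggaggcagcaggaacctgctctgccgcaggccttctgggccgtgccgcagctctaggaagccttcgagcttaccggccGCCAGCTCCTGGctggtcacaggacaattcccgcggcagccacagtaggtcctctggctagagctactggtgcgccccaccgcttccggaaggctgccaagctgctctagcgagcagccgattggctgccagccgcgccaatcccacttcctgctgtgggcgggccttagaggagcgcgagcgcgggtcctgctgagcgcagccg
Abhd17b: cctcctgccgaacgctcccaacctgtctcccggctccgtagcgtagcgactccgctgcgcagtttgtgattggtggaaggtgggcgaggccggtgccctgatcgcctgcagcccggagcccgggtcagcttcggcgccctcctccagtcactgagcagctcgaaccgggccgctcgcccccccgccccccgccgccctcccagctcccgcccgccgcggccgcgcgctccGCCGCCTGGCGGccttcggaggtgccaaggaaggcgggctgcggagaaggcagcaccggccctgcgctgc

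The window of Mfsd6l lies at chr11:68555936-68556235 on the plus strand, and its motif centre was 11 bp from the summit. Ikbkg, which encodes a regulatory subunit of the IκB kinase complex, has its window at chrX:74393041-74393340 on the plus strand. The distance from motif to summit was 81 bp there. The Pms1 window, at chr1:53296979-53297278 on the minus strand, holds the motif in reverse form 36 bp from the summit. Pms1 encodes a DNA mismatch repair protein and shares this promoter with Ormdl1 on the opposite strand. The Abhd17b window, at chr19:21653059-21653358 on the plus strand, also holds the reverse form, 91 bp from the summit.

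Most windows under these regions had no match. With the same exception, the next 3 windows are those of the strongest control-only regions with the summit inside the window and no motif in any window they hold whole. Capitals mark every CpG dinucleotide.

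Samhd1: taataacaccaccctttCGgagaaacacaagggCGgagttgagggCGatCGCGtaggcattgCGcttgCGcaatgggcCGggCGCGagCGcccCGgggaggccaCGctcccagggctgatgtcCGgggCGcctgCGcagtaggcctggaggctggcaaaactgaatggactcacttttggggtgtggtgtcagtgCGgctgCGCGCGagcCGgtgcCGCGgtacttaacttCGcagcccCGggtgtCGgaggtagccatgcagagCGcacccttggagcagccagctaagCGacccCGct
Ddt: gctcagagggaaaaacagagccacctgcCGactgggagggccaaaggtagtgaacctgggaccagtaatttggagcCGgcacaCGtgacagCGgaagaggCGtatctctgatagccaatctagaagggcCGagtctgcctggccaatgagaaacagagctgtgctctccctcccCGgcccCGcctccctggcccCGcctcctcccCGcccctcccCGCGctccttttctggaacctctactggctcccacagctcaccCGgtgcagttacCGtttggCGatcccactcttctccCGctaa
Cmtm8: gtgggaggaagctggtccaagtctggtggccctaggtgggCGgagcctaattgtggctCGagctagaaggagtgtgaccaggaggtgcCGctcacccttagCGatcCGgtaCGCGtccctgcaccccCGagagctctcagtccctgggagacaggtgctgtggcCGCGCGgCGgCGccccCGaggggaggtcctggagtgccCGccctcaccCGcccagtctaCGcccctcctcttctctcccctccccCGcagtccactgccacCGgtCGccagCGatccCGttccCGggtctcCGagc

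Samhd1, which encodes an enzyme that degrades deoxynucleotide triphosphates, has its window at chr2:157135047-157135346 on the minus strand, with 29 CpG and a GC content of 65.7%. The Ddt window, at chr10:75773325-75773624 on the minus strand, had 16 CpG and a GC content of 62.0%. The Cmtm8 window, at chr9:114844103-114844402 on the minus strand, had 24 CpG and a GC content of 69.3%. A missing match says only that these letters are not in the window.

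Over all control-only regions at gene ends, 275 held at least 1 whole promoter window, and together they held 322. The windows were GC-rich, with a median GC content of 65.7% (quartiles 60.3% and 70.7%) against 56.3% over the 21263 windows of all protein-coding genes. A window was called CpG-rich with a GC content over 55% and a ratio of observed to expected CpG over 0.6. By this rule 75.8% of the windows were CpG-rich, 75.2% under shared control regions and 40.6% over all windows. The difference from shared regions was 0.588 percentage points with a 95% Newcombe interval of -4.61 to 5.23. Intervals here and below cover counting error only, and windows of 1 region can overlap.

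The core motif was found in 41 of the 322 windows, 12.7% (95% Wilson interval 9.53% to 16.8%). Shared control regions at gene ends had it in 24.0% of 2918 windows, so the control-only share was lower by 11.3 points (difference -11.3, interval -14.9 to -6.93). All 21263 windows had it in 9.88%, and all CpG-rich windows in 15.1%. The motif share moved with signal among shared regions, from 14.2% in the weakest 3 deciles of the control list to 35.5% in the strongest decile. Within the weakest 3 deciles the control-only share was 12.2%, and the difference from shared regions was -2.02 points (interval -6.28 to 2.74). There the CpG-rich share was lower under control-only than under shared regions, 76.6% against 82.1%, a difference of -5.50 points (interval -11.2 to -0.169). Where a control-only region's window held the motif, its centre lay a median of 164 bp from the summit (quartiles 89.0 and 338 bp), and 12 of the 41 lay within 100 bp. The search covered the promoter window and not the summit, which for many control-only regions lay outside the window. Of regions with a start site within 1 kb, 16.2% of control-only and 26.8% of shared ones had the summit 0 to 200 bp upstream. Within the weakest 3 deciles these shares were 16.3% and 14.1%. The motif shares therefore compare promoter windows, and a difference at the summits was not tested.

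**Figure D1:**
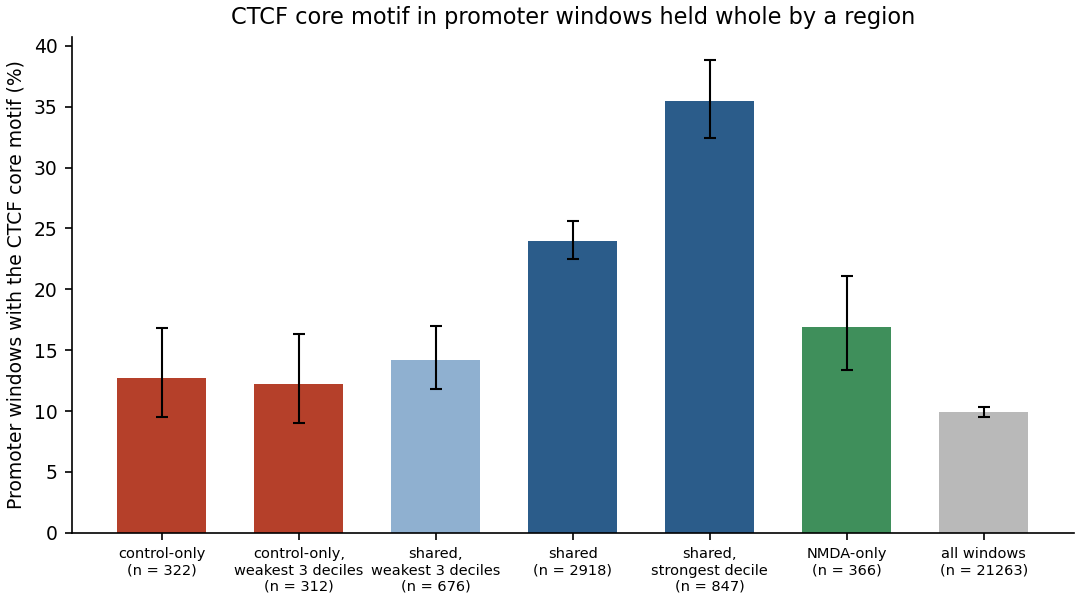
Share of promoter windows held whole by a region that contain the CTCF core motif, in percent, with 95% Wilson intervals; n is the number of windows. The control-only bar stands at 12.7%, near the 14.2% of shared regions in the weakest 3 deciles of signal and below the 24.0% of all shared regions at gene ends.

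The control-only regions at gene ends were weak regions of the control list. Signal is the value deposited by the authors as −log10 p of a region, and its percentile is the share of the control list at or below it. The signal ran from 32.96 to 189.8, with a median of 49.37 (quartiles 41.30 and 61.81), while the median over the control list was 166. The median percentile was 8.90, and 701 of 704 were under the list's median. The weakest decile held 384 of them (54.5%), against 7.31% of shared regions at gene ends. The reproducibility score reached its ceiling of 1000 in 64 (9.09%), against 76.9% of shared regions at gene ends. Since a region drops out of a list when it is weak, these values are tied to how the regions were chosen and are given as a description.

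Control-only regions elsewhere were weak too. Those inside genes, over 1 kb from an end, had a median percentile of 9.34, and those between genes one of 10.9. The regions at gene ends that appeared only in the NMDA list numbered 831 and had a median percentile of 7.89 within their own list. Signals of the 2 lists were ranked within each list only, and their medians were 166 in the control list and 90.9 in the NMDA list.

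**Figure D2:**
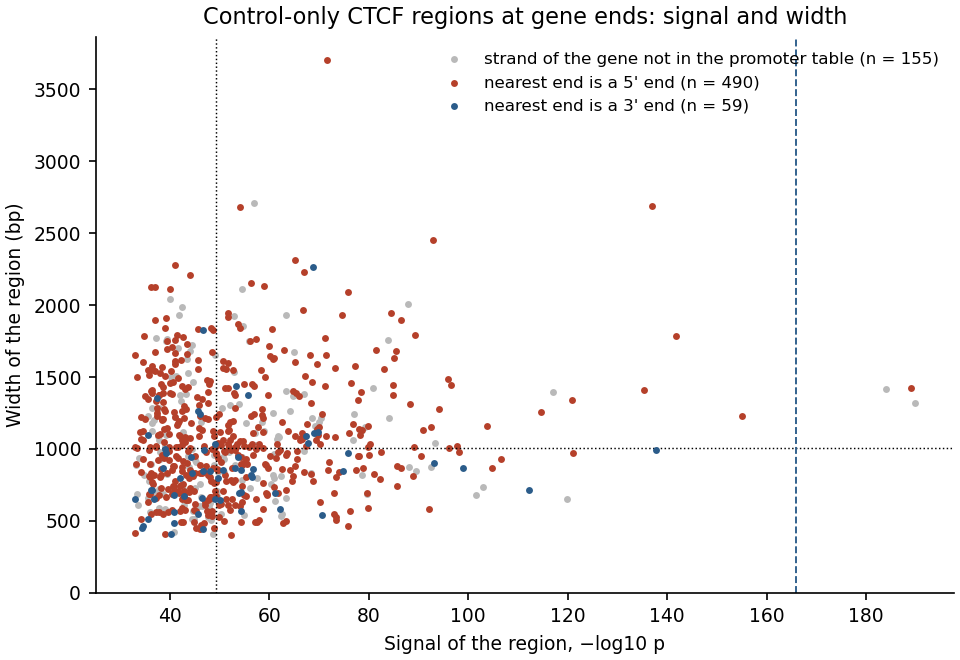
Signal (−log10 p) and width (bp) of each of the 704 control-only regions at gene ends, coloured by the kind of the nearest gene end. Dotted lines mark their medians, 49.37 and 1006 bp, and the dashed line the control list's median signal of 166, which 3 of the regions in this plot exceed.

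The 3 regions above the list's median lay at Gbx1, Map1a and Rwdd1. Gbx1, a homeobox transcription factor gene, had the highest signal, 189.8, in a region of 1322 bp at chr5:24526193-24527514. Its summit was 351 bp outside the gene, and the nearest NMDA region began 1987 bp away. Map1a, the gene of a neuronal protein that binds microtubules, followed at 189.1, with a summit 764 bp inside the gene from its 5′ end. The nearest NMDA region there was 64028 bp away. Rwdd1 had 184.0.

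The next strongest regions lay at genes of varied function. Slc44a5, a choline transporter-like gene, had 155.1, with the summit 73 bp inside its 5′ end. Fgf3, a fibroblast growth factor gene, had 141.8. At Abca1, a cholesterol exporter, a signal of 137.7 lay 75 bp beyond the 3′ end. One region of 2686 bp with a signal of 136.9 lay at ends of both Arsg, a lysosomal sulfatase gene, and Slc16a6, with its summit 76 bp outside Arsg and 341 bp inside Slc16a6. Mbd3, a subunit of the NuRD chromatin remodelling complex, had 135.4. Dpp6, an auxiliary subunit of A-type potassium channels, had 121.0, and the cell cycle factor E2f2 had 120.9. Also among the 25 strongest were the kinase genes Rps6ka3 (119.8) and Plk3 (96.53), the sphingosine 1-phosphate receptor gene S1pr1 (117.0), the transcription factor gene Ebf1 (106.7), the metalloproteinase gene Mmp16 (103.0) and Samhd1 (98.21). The 25th, at Tbc1d12, had 96.05, at a percentile of 30.8.

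The control-only share of control regions fell steeply with signal, at gene ends and elsewhere. In the weakest decile 49.4% of control regions at gene ends were control-only, against 46.9% farther away, a difference of 2.41 points (interval -1.58 to 6.41). In the second decile the shares were 29.8% and 22.9%, a difference of 6.90 points (interval 3.23 to 10.7). In the third they were 14.3% and 12.4%, a difference of 1.87 points (interval -0.994 to 5.10), and in the fourth 3.56% and 5.32%. The sixth decile was the strongest to hold any at a gene end, with 3 regions. Of all control-only regions 22.6% lay at gene ends, against 17.6% of shared control regions.

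Control-only regions at gene ends were wider than control-only regions elsewhere. Their width ran from 405 to 3701 bp with a median of 1006 bp (quartiles 772 and 1320 bp). The median was 777 bp for control-only regions inside genes and 735 bp for those between genes. Shared control regions at gene ends were wider still, with a median of 1351 bp. At matched signal this last gap was smaller. In the weakest decile the medians were 953 bp for control-only and 1022 bp for shared regions at gene ends, against 695 and 741 bp away from gene ends. NMDA-only regions showed the same order, with medians of 914 bp at gene ends and 723 bp elsewhere. A wider region is more likely to overlap another, so width is not independent of the choice either.

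**Figure D3:**
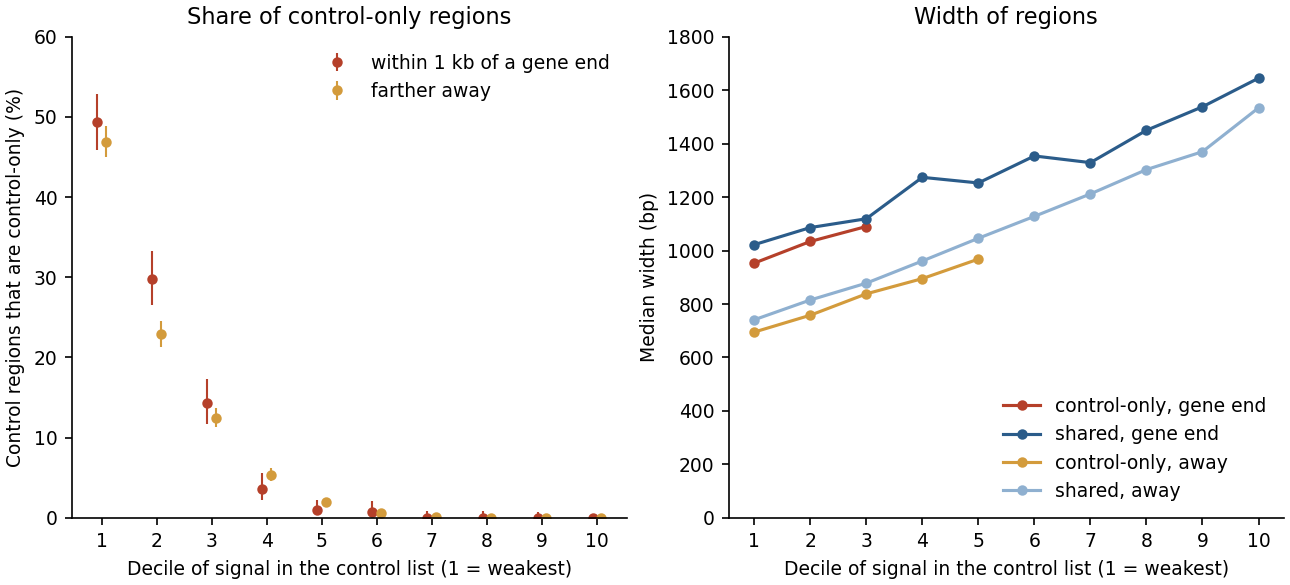
Left, share of control regions that were control-only in each decile of signal, within 1 kb of a gene end or farther away, in percent with 95% Wilson intervals. Right, median width (bp) per decile for groups of at least 20 regions: at gene ends the medians of the weakest decile are 953 and 1022 bp, and away from them 695 and 741 bp.

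Width and signal were nearly unrelated among these regions, with a Spearman correlation of 0.0855 over 704 regions. It was 0.190 over the 831 NMDA-only regions at gene ends and 0.399 over the 5392 shared regions there. Control-only regions had 0.257 inside genes (1449 regions) and 0.317 between genes (964 regions). Each is a correlation across regions of 1 list and is given as a description. The signal of shared regions at gene ends ran up to 3601, against 189.8 here, and no correlation was taken at matched signal. The widest region, 3701 bp at chr7:36695184-36698884, lay at the 5′ end of Tshz3, a zinc finger homeobox gene, with a signal of 71.72. Tshz3 shares it with a gene model without an established name. Other wide regions lay at Ctif (2711 bp), at Grik3, a kainate receptor subunit gene (2681 bp), at the homeobox gene Tgif1 (2453 bp) and at the RNA helicase gene Dhx15 (2314 bp). Among named genes the narrowest lay at Inhbe (406 bp), Podxl (411 bp), Lrrc8b (412 bp) and Spag4 (416 bp). Regions with a 5′ end and no 3′ end nearby had a median width of 1024 bp (n = 480), and those with only a 3′ end nearby 817 bp (n = 55).

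The gene ends concerned were mainly 5′ ends. The strand of a gene within 1 kb was known for 553 of the 704 regions, from the promoter table. Of these, 498 (90.1%, interval 87.3% to 92.3%) had a 5′ end within 1 kb. The share was 80.8% of 4313 shared control regions, so the control-only share was higher by 9.28 points (interval 6.27 to 11.8). Within the weakest 3 deciles of signal the shares were 90.2% and 84.5%, a difference of 5.79 points (interval 2.35 to 8.94). NMDA-only regions stood at 86.9%, and the difference from them was 3.14 points (interval -0.503 to 6.69). Only a 3′ end was near in 55 regions (9.95%). After Abca1, the strongest of these lay at Adgrf1 (112.3), an adhesion G protein-coupled receptor gene, at Vgll2 (98.91) and at the homeobox gene Nkx2-9 (93.09).

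Summits lay more often downstream than upstream of the start site. Of 470 regions with a start site within 1 kb, 315 (67.0%, interval 62.6% to 71.1%) had the summit downstream of it. Shared control regions had 49.1% downstream, a difference of 17.9 points (interval 13.2 to 22.3). Within the weakest 3 deciles the shares were 66.4% and 64.8%, and the difference was 1.60 points (interval -3.79 to 6.84). NMDA-only regions had 67.5%. The fullest 200 bp bin was 0 to 200 bp downstream for control-only regions, with 24.7%, and 0 to 200 bp upstream for shared regions, with 26.8%.

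**Figure D4:**
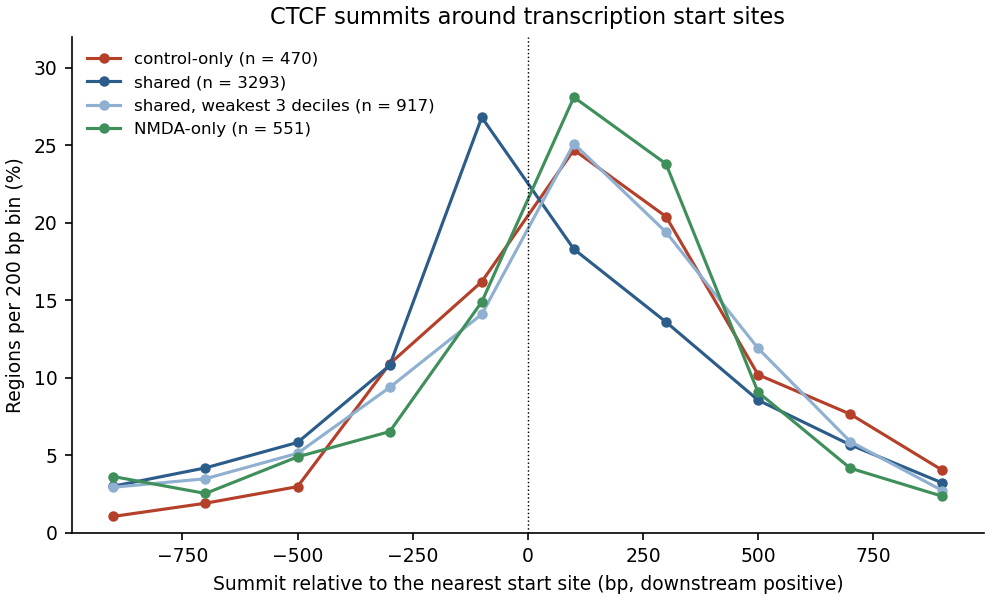
Summits per 200 bp bin of distance from the nearest start site, in percent of the regions with one within 1 kb. Control-only, NMDA-only and weak shared regions are most frequent 0 to 200 bp downstream (24.7%, 28.1% and 25.1%), and all shared regions 0 to 200 bp upstream (26.8%).

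The median distance from summit to gene end was 310 bp (quartiles 162 and 542 bp), and 102 summits (14.5%) lay within 100 bp. The strongest within 50 bp lay at Pcdhb10 (28 bp, signal 92.49), at Fam3a and Ikbkg (13 bp, 90.58), at Ormdl1 and Pms1 (46 bp, 80.37), at Tmem130 (5 bp, 77.44) and at Neurog3 (1 bp, 70.70). Neurog3 is a basic helix-loop-helix factor gene of endocrine and neural progenitors. Ends of 2 genes were near in 79 regions (11.2%), and 44 (6.25%) had 5′ ends of 2 genes on opposite strands. Shared regions had 12.2% and 5.40%, with difference intervals of -3.33 to 1.66 and -0.833 to 2.97 points.

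At the distance limit, the regions just inside 1 kb lay at Mmp16 (1000 bp), Atp5l (999 bp), Kcnab3 (988 bp), Zic5 (984 bp) and Nhsl2 (981 bp). Control-only regions just outside it lay at Ddx11 (1001 bp), Nkx2-3 (1003 bp), Tln2 (1007 bp), Ltbp3 (1012 bp) and Rtl4 (1016 bp). The strongest on either side were at a signal percentile of 33.2 (Mmp16) and 34.4 (Nkx2-3). At the overlap limit, 6 of the 704 regions ended under 100 bp from an NMDA region. They lay at Tmod1 (37 bp), Maco1 (62 bp), Ciart (63 bp), Bach2 (82 bp), Myb (83 bp) and Cenpb (94 bp). On the other side, 2 of 5392 shared regions at gene ends overlapped by under 100 bp, at Zbtb8a (14 bp) and Hes1 (51 bp). If summits had to lie within 100 bp for a region to count as shared, 1472 control regions at gene ends would be control-only, and 1139 if the overlap had to cover 50% of both regions.

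The nearest NMDA region lay a median of 12408 bp away (quartiles 3500 and 30570 bp). It was under 500 bp away in 51 regions (7.24%, interval 5.55% to 9.40%), against 3.61% (interval 2.93% to 4.43%) of control-only regions away from gene ends. No NMDA region lay within 100 kb of 40 regions (5.68%, interval 4.20% to 7.64%). Of control-only regions away from gene ends, 8.99% (interval 7.92% to 10.2%) had none so near. The 40 included the stronger of 2 regions at Mmp16, whose nearest NMDA region was 796292 bp away, and the region at Olfm3, at 200012 bp.

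The 704 regions lay at an end of 772 of 21887 protein-coding genes (3.53%). Shared control regions lay at an end of 5674 genes (25.9%) and NMDA-only regions at an end of 936 (4.28%). Of the 772 genes, 97 (12.6%) also had a shared region at an end, and 383 (49.6%) had one somewhere in the span widened by 1 kb, close to the 48.3% of all genes. There was no shared or NMDA-only region in the widened span of 335 genes (43.4%). The matching share of all genes was not counted, so 43.4% has no background beside it. The genes were long, with a median span of 29.0 kb, against 23.4 kb for genes with a shared region at an end, 21.8 kb for those with an NMDA-only region and 17.2 kb for all genes.

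An NMDA-only region also lay at an end, the same or the other, in 17 of the 772 genes (2.20%). At Hs6st1, which encodes a heparan sulfate sulfotransferase, the control region had a signal of 79.9, at percentile 24.7 of its list, and an NMDA-only region began 134 bp away. The NMDA region's signal was 18.5, at percentile 0.189, with 8.05 and 10.5 in the columns of its 2 replicates. At Igdcc4 the gap was 188 bp, at Nrbf2 176 bp and at Naa35 281 bp. In such pairs each list held a region near the same end without overlap. In others of the 17 genes, such as B4galnt3 with a gap of 93686 bp, the regions were far apart.

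The genes were read against 43 classes defined by symbol. As many as 257 of the 772 (33.3%) belonged to at least 1 class, against 33.5% of all protein-coding genes. In 36 classes the 95% interval of the share with a control-only region at an end held 3.53%, the share over all genes. These intervals are not adjusted for the number of classes, and genes in a class can share a region.

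In 5 classes the interval lay above it. Protein kinases and phosphatases had 27 of 401 genes (6.73%, interval 4.67% to 9.62%), led by Rps6ka3, Plk3, Stk38l (90.96) and Prkd1 (85.63). Being set by symbol, this class also counts Prkcsh, Pik3ap1, Camk2n2 and Cdk5r2, which encode neither a kinase nor a phosphatase. The ubiquitin system had 26 of 472 (5.51%, interval 3.79% to 7.95%), with the F-box genes Fbxo10 (89.30) and Fbxo41 (74.74) and the ligase gene Rnf220 (77.91). Chromatin regulators had 16 of 239 (6.69%, interval 4.16% to 10.6%), among them Mbd3, the remodeller ATPase gene Smarca5 (57.33) and the arginine methyltransferase gene Prmt6 (58.49). Growth factors and morphogens had 11 of 127 (8.66%, interval 4.91% to 14.8%), with Fgf3, Wnt16 (66.26), Areg (57.64) and Vegfb (46.64). Basic helix-loop-helix factors had 7 of 92 (7.61%, interval 3.73% to 14.9%), with Neurog3, the aryl hydrocarbon receptor gene Ahr (66.95) and Atoh7 (54.93). Shared regions lay at an end of 38.7%, 32.2%, 33.9%, 33.1% and 33.7% of the genes of these classes, in the same order, against 25.9% of all genes.

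In 2 classes the interval lay below. Among 1516 olfactory, vomeronasal and taste receptor genes the count was 0, which allows a share of up to 0.198%. Of 227 keratin, defensin and skin barrier genes 1 had, Defb29 (0.441%). Shared regions were at an end of 0.660% and 3.08% of these genes.

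**Figure D5:**
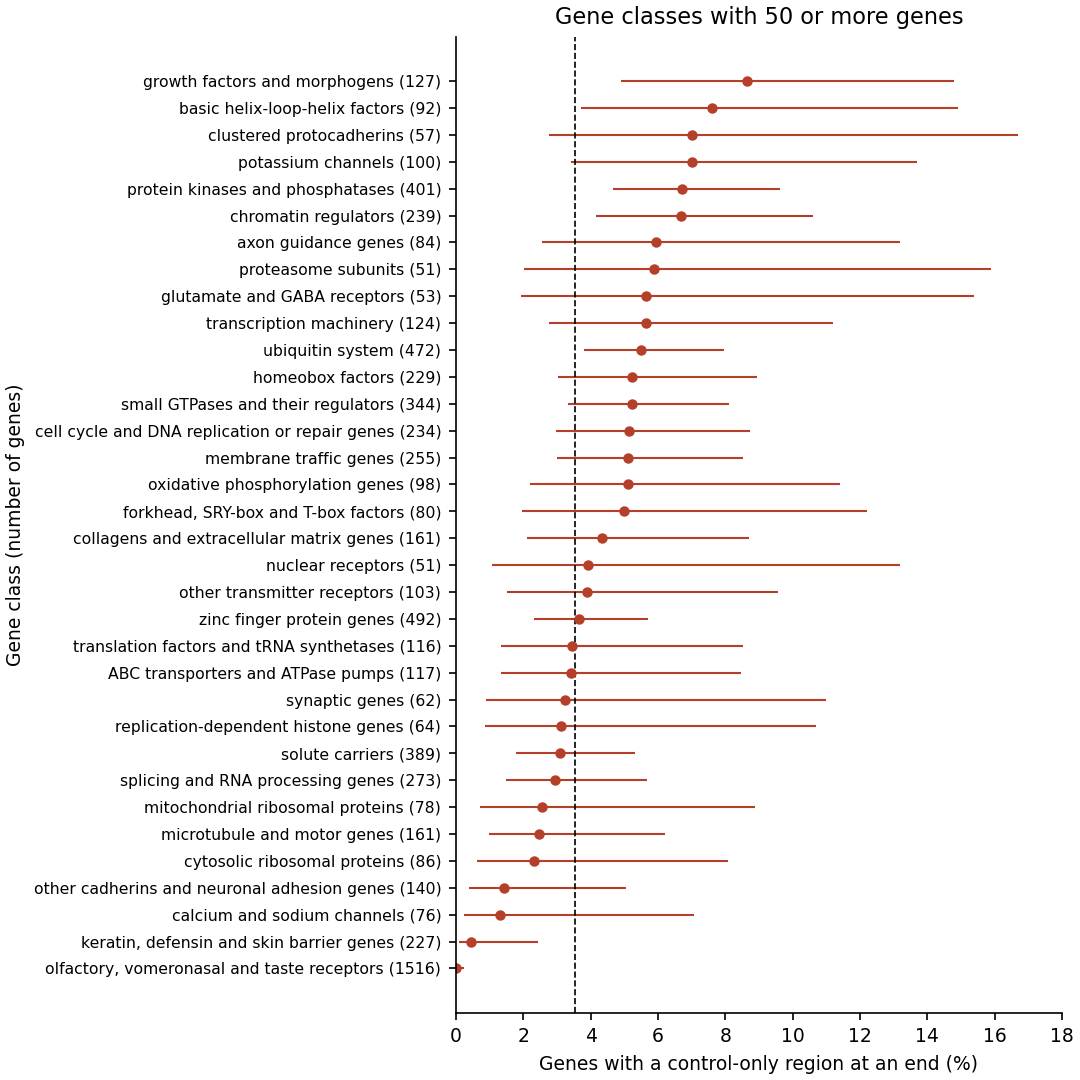
Share of genes with a control-only CTCF region at an end, in percent with 95% Wilson intervals, for the classes with 50 or more genes; the dashed line is the 3.53% of all protein-coding genes. Growth factors and morphogens stand highest at 8.66%, and no olfactory, vomeronasal or taste receptor gene has one.

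The neuronal and activity-related classes are small, and the intervals of those given here all held the 3.53% of all genes, with shares on both sides of it. Immediate early genes, which respond first to neuronal activity, had 2 of 35 (5.71%, interval 1.58% to 18.6%). They were Nr4a1, an orphan nuclear receptor gene (50.77, summit 541 bp from the 5′ end), and Fosl1 (46.13). Shared regions lay at an end of 18 of the 35 (51.4%), against 25.9% of all genes. Of 31 later activity-regulated genes 3 had one (9.68%, interval 3.35% to 24.9%). They were Plk3, the regulator of G protein signalling Rgs2 (60.17) and the transcription factor Bach2 (57.24). Bach2 is among the 6 with an NMDA region under 100 bp away.

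Synaptic genes had 2 of 62 (3.23%), the adhesion gene Lrrtm2 (40.31) and the presynaptic scaffold gene Pclo (36.44). Glutamate and GABA receptor genes, with glycine receptor subunits, had 3 of 53 (5.66%), at Glrb (63.59), Grik3 (54.16) and Gabrb2 (42.56). Potassium channel genes had 7 of 100 (7%, interval 3.43% to 13.7%), among them Dpp6, Kcnq1 (68.59) and the small-conductance channel gene Kcnn3 (47.63). Calcium and sodium channel genes had 1 of 76 (1.32%), Cacna2d1 (60.93). Other transmitter receptor genes had 4 of 103 (3.88%), the dopamine receptor genes Drd5 (70.18) and Drd4 (42.97), Tacr3 and P2rx3. Axon guidance genes had 5 of 84 (5.95%), led by Epha3 (58.72).

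Clustered protocadherin genes had 4 of 57 (7.02%, interval 2.76% to 16.7%), namely Pcdhb10 (92.49), Pcdhb4 (79.58), Pcdhgb7 (49.28) and Pcdhga7 (38.66). In the same class 36 genes (63.2%) had a shared region at an end and 14 (24.6%) an NMDA-only one. Over all genes these shares were 25.9% and 4.28%. Cytosolic ribosomal protein genes had 2 of 86 with a control-only region (2.33%, interval 0.640% to 8.09%), Rpl3 (69.21) and Rps3 (56.75). An NMDA-only region lay at an end of 11 of the 86 (12.8%). Homeobox genes had 12 of 229 (5.24%, interval 3.02% to 8.93%) and zinc finger protein genes 18 of 492 (3.66%, interval 2.33% to 5.71%), led by Zfp72 (92.04). Imprinted genes had 3 of 44 (6.82%, interval 2.35% to 18.2%), Kcnq1, Kcnk9 (42.16) and Rasgrf1 (38.24).

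The count was 0 of 31 genes of CTCF, cohesin and topoisomerases, which allows a share of up to 9.68%. It was also 0 of 30 Kruppel-like, Sp and Egr factor genes (up to 10.0%), 0 of 39 neuron marker genes (up to 7.69%) and 0 of 20 astrocyte marker genes (up to 15.0%). Olig1 (42.50) was the 1 of 20 oligodendrocyte lineage genes (5.00%), and Sall1 (40.13) the 1 of 27 microglia and vascular genes (3.70%). Shared regions lay at an end of 16 of the 39 neuron marker genes (41.0%), against 25.9% of all genes.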

How the data were processed

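CTCF ChIP-seq lists from wild-type mouse cortical neurons were analysed, 1 per condition over 2 replicates. Samples were grouped by the labels. Per the submitters' processing notes the tools were MACS2, BWA, SAMtools, Trimmomatic and FastQC and the builds mm10 and GRCm38.p6. Tool versions and thresholds: not given in the sources used here. The authors deposited 33820 control and 36193 NMDA regions, in the layout of the irreproducible discovery rate procedure. The deposited −log10 p-value of a region was used as its signal and only ranked within a list. In all 36186 NMDA regions analysed it equalled the sum of the 2 replicate columns. The deposited score ranged from 540 to 1000. The other deposited values used are the summit position, the region bounds and, for NMDA, the replicate columns. Input samples were not analysed here.

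Regions off chromosomes 1 to 19, X and Y were left out (5 control, 7 NMDA). Overlap was counted from 1 bp, and gene ends came from the RefSeq table of GRCm38.p6, the assembly that mm10 names. That table has no strand, so strand and start sites came from the RefSeq promoter table, which matched 17492 of 21887 protein-coding genes and has no window on chromosome 18. Shares have 95% Wilson and differences 95% Newcombe intervals (Python 3.11.15, numpy 2.4.6, pandas 2.3.3), which cover counting error only, and no p-value was computed. Counting steps were tested on simulated data. Where a share is 0, the limit is 3 counts of the total.

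The regions, classes and named-gene rule were chosen with earlier results of these data known. The rule named genes by signal (25 highest), width (10 widest, 5 narrowest), nearness to an end (5 strongest within 50 bp), regions at ends of 2 genes (8), genes with several regions (8), up to 6 per class and the 5 regions on each side of 1 kb, passing over gene models without an established name. A few results the rule would name are not reported here. Genes named for a close NMDA region, a small overlap or a 3′ end, and Tshz3 and the printed windows, were chosen after their values were seen. So was the comparison within the weakest 3 deciles. Alternatives changed the overlap rule, score, list length, distance, gene types and use of the summit.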

Additional observations from a re-analysis of the deposited data

How the results depend on the processing

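No paired analysis was possible because each condition is 1 list over both replicates, and for the same reason no replicate could be left out. The main values were 704 regions, 22.6% of control-only regions at gene ends, a median width of 1006 bp, a median percentile of 8.90 and 3.53% of genes. Requiring 50% reciprocal overlap gave 1139 regions, 1125 bp, percentile 14.0 and 5.67% of genes, and summits within 100 bp gave 1472, 27.4%, 1282 bp, 14.7 and 7.40%. A score of at least 830 in both lists gave 410 regions, 27.9%, 1110 bp, percentile 23.7 and 2.11% of genes, and only 166 of the 410 were among the 704. Extending regions by 500 bp left 621 regions and 3.11% of genes, and cutting the NMDA list by signal to the length of the control list gave 905 and 4.52%. A distance of 500 bp gave 16.3% at gene ends and 2.52% of genes, and 2 kb gave 29.7% and 4.74%. Ends of all gene types gave 27.1%, 969 bp and 2.04% of 49943 genes, and taking any base of a region gave 26.6% and 4.19%. The other values stayed within 1.5 times the main count or within the main value's 95% interval. All 25 of the strongest named regions were kept under 7 of the 9 alternatives, but this is no check on them. One of the 7, the score limit of 830, lay below all their scores, the lowest being 881. The others kept all 704 regions, since they loosen the choice and can hardly remove any. S1pr1 was lost when regions were extended, and Map1a, Adgrf1, Gpatch11, Mmp16 and Vgll2 were lost at 500 bp. Read depth is unknown, so weak regions absent from the NMDA list cannot be told apart from regions just under its threshold.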

Other observations

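Control-only regions lay at more than 1 place in 11 of the 772 genes. At Mmp16 they had signals of 103.0 and 48.24 around the same end, and at Zfp592 signals of 82.22 and 42.44 on either side of the 5′ end. At Ankrd16 they had 84.88 and 42.68, also around the 5′ end. At other genes the regions lay at opposite ends. Heatr5b, whose strand is not in the promoter table, had 103.8 at one end and 35.97 at the other. Vgll2 had 98.91 near the 3′ end and 46.06 near the 5′ end. Brwd1, which encodes a bromodomain protein, had 84.42 near the 3′ end and 42.67 near the 5′ end. Tmod1, an actin filament capping protein gene, had 78.50 near the 5′ end and 34.37 near the 3′ end. The collagen gene Col8a2 had 58.86 near the 5′ end and 53.08 near the 3′ end.

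By chromosome, the share of control regions at gene ends that were control-only ran from 9.20% on chromosome 11 (47 of 511) to 15.7% on chromosome 10 (51 of 325), with 15.6% on X (17 of 109), and the single such control region on Y was shared. Gene models without an established symbol made up 4.15% of the 772 genes and 8.97% of all protein-coding genes.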
